A study of Drosophila melanogaster with 12 samples.

Results

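The heat shock and chaperone genes of the fly head were taken as a list of 10 named genes: the small heat shock genes Hsp23, Hsp26 and Hsp27, the Hsp90 gene Hsp83, the mitochondrial chaperonin gene Hsp60A, the Hsp70 cognates Hsc70-3, Hsc70-4 and Hsc70-5, the co-chaperone gene stv and the heat shock factor gene Hsf. Probe sets were assigned by the gene named for them in the platform annotation. Of the 10 genes, 8 had at least 1 probe set of their own, and these 8 genes had 10 probe sets among the 13966 tested. Hsp23 and Hsp83 had no probe set named for them and were not analysed here. The 2 probe sets annotated to Hsc70-4 together with another gene were not used.

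RNA came from heads of adult cn bw flies, which carry the eye colour mutations cinnabar and brown, and all 12 samples share that strain. The 6 samples of constant darkness were collected at circadian times CT4, CT8, CT12, CT16, CT20 and CT24. The 6 samples of the light/dark day before it were collected at Zeitgeber times ZT4, ZT8, ZT12, ZT16, ZT20 and ZT24, after 3 days in which 12 hours of light alternated with 12 of dark. Each sample was a pool of about 100 to 200 heads on 1 array, so no time point had a replicate, and the age of the flies is not given in the labels. Lighting and elapsed time cannot be told apart in this design, and p-values measure the scatter of arrays around a fitted curve. In such whole-head RNA, fewer cells of a type and less RNA per cell cannot be told apart.

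Chaperones bind unfolded or partly folded proteins and keep them from clumping, and many release them in cycles driven by ATP. Heat shock factor, the protein of Hsf, is held inactive in unstressed cells; after heat or other protein damage it forms trimers and turns on genes such as Hsp26 and Hsp27. The cognates, the Hsc70 genes, are instead transcribed in unstressed cells and serve the cytosol, the endoplasmic reticulum and the mitochondrion. In neurons, cytosolic Hsc70 also strips clathrin from synaptic vesicles.

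Most measured markers of each cell type listed lay above the median probe set. Of the photoreceptor markers, 4 of 7 had a probe set of their own, and all 4 lay above it. Arr2 led them at 11.04 on the log2 scale of the deposited values. Of 5 measured neuron markers 4 lay above it, and of 4 measured glia markers all 4. So did all 5 measured fat body markers and 5 of 6 measured gut markers, so these levels do not single out a tissue. The arrays differed in technical signal. Control transcripts that are added before hybridisation gave a mean log2 signal of 10.13 to 10.63 in ZT12, ZT16, ZT24, CT4 and CT16, against 8.39 to 9.64 in the other 7 arrays. The 3' minus 5' signal of 3 fly control genes, which grows as RNA is broken or copied short, was highest in the same 5 arrays, at 2.08 to 3.32, against 1.49 to 2.02 in the other 7. Muscle markers (5 of 8 measured) had list medians from -0.99 in CT4 to 0.45 within constant darkness and from -0.97 in ZT16 to 0.53 within the light/dark day, relative to each gene's own mean; all 5 lay above the median probe set. In CT8 the gut list (6 of 8 measured) stood at 0.72 and the neuron list (5 of 7 measured) at -0.85.

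Among the listed genes, Hsc70-4, Hsp60A and the stronger probe set of Hsc70-3 lay near the top of all probe sets. The heat-inducible Hsp26 and Hsp27 lay near the middle. The identifier of the stronger Hsc70-3 set is of the kind Affymetrix gave to sets whose probes match a gene family. What other genes add to its level was not tested. Hsc70-4 averaged 9.20 ± 0.55 (SD, n = 12), Hsc70-3 8.61 ± 0.17 and Hsp60A 8.55 ± 0.30 on the log2 scale, at percentiles 98.4, 97.4 and 97.4 of all probe sets. Hsc70-5 averaged 6.20 ± 0.30, at percentile 80. The small heat shock genes Hsp26 and Hsp27 averaged 5.22 ± 0.19 and 4.89 ± 0.11, at percentiles 58.7 and 51, and the median probe set was at 4.85. The co-chaperone gene stv averaged 6.93 ± 0.12 (percentile 89.9) and Hsf 4.22 ± 0.16 (percentile 36). Probes differ in how well they bind, so these levels place each probe set on the array and do not rank the genes by amount of transcript. For a pair of genes, probe sets of the same gene lay apart. A second probe set of Hsc70-3 averaged 3.80 (percentile 26.7) and a second probe set of stv 4.87. The cause of these gaps was not tested. Relatives of both kinds crossed this order: the inducible l(2)efl and DnaJ-1 lay at percentiles 95.1 and 93.2 and the inducible Hsp68 at 48.5, while the cognates Hsc70-1 and Hsc70-2, named here after their values were seen, lay at 18.9 and 28.7. No detection calls were used, so a level near the median may hold background.

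**Figure D1:**
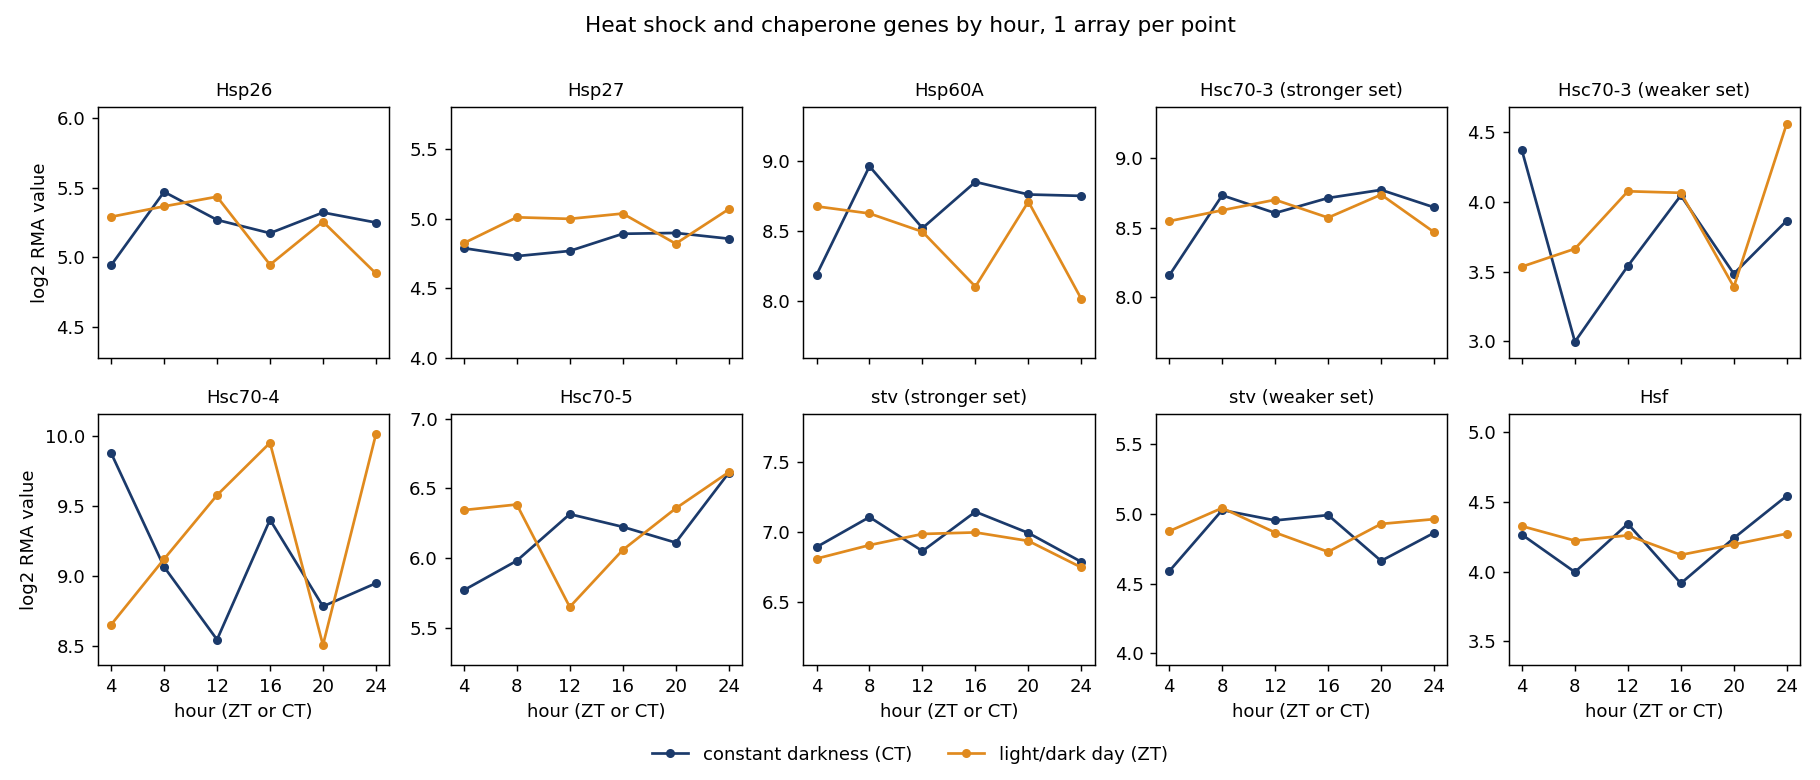
Log2 value of each probe set against the hour of collection, 1 array per point, for constant darkness (CT, blue) and the light/dark day (ZT, orange); every panel spans the same log2 range. Hsc70-4 and the weaker probe set of Hsc70-3 swing most, while Hsp27 and stv stay within a narrow band.

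Hsc70-4, the major cytosolic Hsp70 cognate, moved more between arrays than any other member's own strongest probe set. It measured 9.88, 9.06, 8.54, 9.40, 8.78 and 8.95 in constant darkness from CT4 to CT24, against 8.65, 9.12, 9.58, 9.95, 8.51 and 10.02 in the light/dark day from ZT4 to ZT24. The 2 days overlapped over most of their range, and the high arrays were ZT24, ZT16, CT4, ZT12 and CT16. The highest array exceeded the lowest 2.85-fold, and the SD over 12 arrays lay at percentile 97.6 of all probe sets. The mean of constant darkness was 9.10 ± 0.48 (SD, n = 6) and that of the light/dark day 9.30 ± 0.65. The difference of -0.20 ± 0.31 (SE) had a 95% interval of -0.89 to 0.49 and did not pass (limma adjusted p = 0.9387). Single arrays moved it much: it was -0.02 without ZT24 and -0.40 without ZT20, the ends of its range with 1 array left out.

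For Hsc70-4 the amplitude of a daily rhythm common to both days, the peak minus the mean of a fitted curve with a period of 24 hours, was 0.01 ± 0.22 (SE; limma adjusted p = 1). It was 0.21 with the 3' minus 5' signal as a covariate, 0.24 without ZT16, ZT24, CT4 and CT8, and 0.024 to 0.19 with 1 array left out, and passed in none of these. Fitted to each day alone, the amplitude was 0.28 in constant darkness, peaking at hour 3.5, and 0.26 in the light/dark day, peaking at hour 15.2. The size of that difference, the length of the vector between the 2 curves' cosine and sine terms, was 0.54 ± 0.46 (limma adjusted p = 0.9861).

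Hsc70-3 encodes the BiP chaperone of the endoplasmic reticulum. Its stronger probe set, with an identifier of the kind Affymetrix gave to sets whose probes match a gene family, measured 8.16, 8.73, 8.60, 8.71, 8.77 and 8.64 from CT4 to CT24, against 8.55, 8.62, 8.70, 8.57, 8.74 and 8.47 from ZT4 to ZT24. Only CT4 stood apart, below all 11 other arrays, and the days overlapped. Its weaker probe set measured 4.37, 2.997, 3.54, 4.04, 3.48 and 3.86 in constant darkness, against 3.54, 3.66, 4.08, 4.06, 3.39 and 4.56 in the light/dark day. Here ZT24 and CT4 were the highest arrays, which were the lowest ones for the stronger set, so the 2 probe sets of the gene disagreed. The day difference was -0.004 ± 0.092 (SE) for the stronger and -0.16 ± 0.25 for the weaker set (limma adjusted p = 0.9966 and 0.9384).

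Among the mitochondrial chaperones, Hsp60A encodes the chaperonin that folds imported proteins. It measured 8.18, 8.96, 8.52, 8.85, 8.76 and 8.75 from CT4 to CT24, against 8.68, 8.62, 8.49, 8.10, 8.71 and 8.01 from ZT4 to ZT24. ZT24, ZT16 and CT4 were the 3 low arrays, and the days overlapped. The mean was 8.67 ± 0.28 in constant darkness and 8.44 ± 0.30 in the light/dark day (SD, n = 6 each). Of the 6 same-hour pairs 5 were higher in constant darkness. The differences were 0.75 and 0.74 at hours 16 and 24, 0.34 at hour 8, 0.05 at hour 20 and 0.03 at hour 12. At hour 4 the difference was -0.49. The difference of the means was 0.24 ± 0.16 (SE), with a 95% interval of 0.92-fold to 1.51-fold (limma adjusted p = 0.9298). It was 0.14 without ZT24 and 0.35 without CT4, the ends of its range with 1 array left out. It was 0.10 with a repeated quantile normalization and 0.049 without ZT16, ZT24, CT4 and CT8. As a covariate, the 3' minus 5' signal gave 0.15 and the signal of the added control transcripts 0.076.

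Hsc70-5 encodes the mitochondrial Hsp70, which draws proteins in through the inner membrane. It measured 5.77, 5.98, 6.32, 6.22, 6.11 and 6.61 from CT4 to CT24, against 6.34, 6.38, 5.65, 6.06, 6.36 and 6.62 from ZT4 to ZT24. The arrays at the end of each day, ZT24 and CT24, were the highest, and ZT12 and CT4 the lowest. The common amplitude of 0.21 ± 0.11 (SE), with a fitted peak at 23.3 hours, was the largest among the members, and it did not pass (limma unadjusted p = 0.2059, adjusted p = 1). In fits to each day alone the amplitude was 0.17 in constant darkness, peaking at hour 19.0. It was 0.38 in the light/dark day, peaking at hour 0.9. The size of the difference between these curves was 0.41 ± 0.20 (SE) and did not pass (limma unadjusted p = 0.1719, adjusted p = 0.9861). The day difference was -0.07 ± 0.15 (limma adjusted p = 0.9596).

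Hsp26 and Hsp27 encode small heat shock proteins, which hold unfolded proteins without using ATP. In the RefSeq gene order both sit on chromosome arm 3L in 1 cluster with Hsp22, Hsp23, Hsp67Ba, Hsp67Bc and CG4456, each within 10 genes of the other. Hsp26 measured 4.94, 5.47, 5.27, 5.17, 5.32 and 5.25 from CT4 to CT24, against 5.29, 5.36, 5.43, 4.95, 5.26 and 4.88 from ZT4 to ZT24. Hsp27 measured 4.79, 4.73, 4.77, 4.89, 4.90 and 4.86 from CT4 to CT24, against 4.82, 5.01, 4.999, 5.04, 4.82 and 5.07 from ZT4 to ZT24. The neighbours did not run together. ZT24 was the lowest array for Hsp26 and the highest for Hsp27, and CT8 the highest for Hsp26 and the lowest for Hsp27. Both arrays were technically extreme: ZT24 had the largest 3' minus 5' signal (3.32) and CT8 the lowest signal of the added control transcripts (8.39). The part of these signals was not tested.

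The difference between the days was 0.04 ± 0.11 (SE) for Hsp26, higher at 4 of 6 hours in constant darkness (limma adjusted p = 0.9654). Hsp27 had the smallest p of the members. It averaged 4.82 ± 0.07 in constant darkness and 4.96 ± 0.11 in the light/dark day (SD, n = 6 each), lower at 5 of 6 hours in constant darkness, although the days overlapped. Its difference of -0.14 ± 0.07 (SE) had a 95% interval of -0.28 to 0.01 and did not pass (limma unadjusted p = 0.0589, adjusted p = 0.9298). It was -0.055 without ZT16, ZT24, CT4 and CT8. As a covariate, the 3' minus 5' signal gave a difference of -0.12 and the signal of the added control transcripts -0.090. With 1 array left out the difference of Hsp27 ran from -0.18 to -0.11. The amplitude of a common rhythm was 0.12 ± 0.08 for Hsp26 and 0.04 ± 0.05 for Hsp27 (limma adjusted p = 1 for each).

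The co-chaperone gene stv, whose product starvin is the fly BAG protein that helps Hsp70 release its clients in muscle, was among the steadiest members. It measured 6.89, 7.11, 6.86, 7.15, 6.99 and 6.79 from CT4 to CT24, against 6.81, 6.91, 6.99, 6.998, 6.94 and 6.75 from ZT4 to ZT24. The lowest arrays were the last of each day, and the days overlapped. Its second probe set measured 4.59, 5.03, 4.95, 4.99, 4.66 and 4.86 from CT4 to CT24, against 4.88, 5.04, 4.86, 4.73, 4.93 and 4.96 from ZT4 to ZT24, with CT4 lowest and ZT8 highest. The amplitude of the stronger set was 0.11 ± 0.05 (SE), with a fitted peak at 13.9 hours and the smallest rhythm p of the members (limma unadjusted p = 0.1116, adjusted p = 1). That of the second set was 0.07 ± 0.06, with a fitted peak at 10.1 hours (limma unadjusted p = 0.572). The day difference was 0.07 ± 0.07 for the stronger set and -0.05 ± 0.09 for the second one (limma adjusted p = 0.9298 and 0.946).

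Hsf measured 4.26, 4.00, 4.34, 3.92, 4.24 and 4.54 from CT4 to CT24, against 4.33, 4.22, 4.26, 4.12, 4.20 and 4.27 from ZT4 to ZT24. The 6 light/dark values lay inside the range of those in constant darkness, with an SD of 0.23 in constant darkness and 0.07 in the light/dark day; that contrast of spread was not tested. The day difference was -0.02 ± 0.09 (SE; limma adjusted p = 0.9901).

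**Figure D2:**
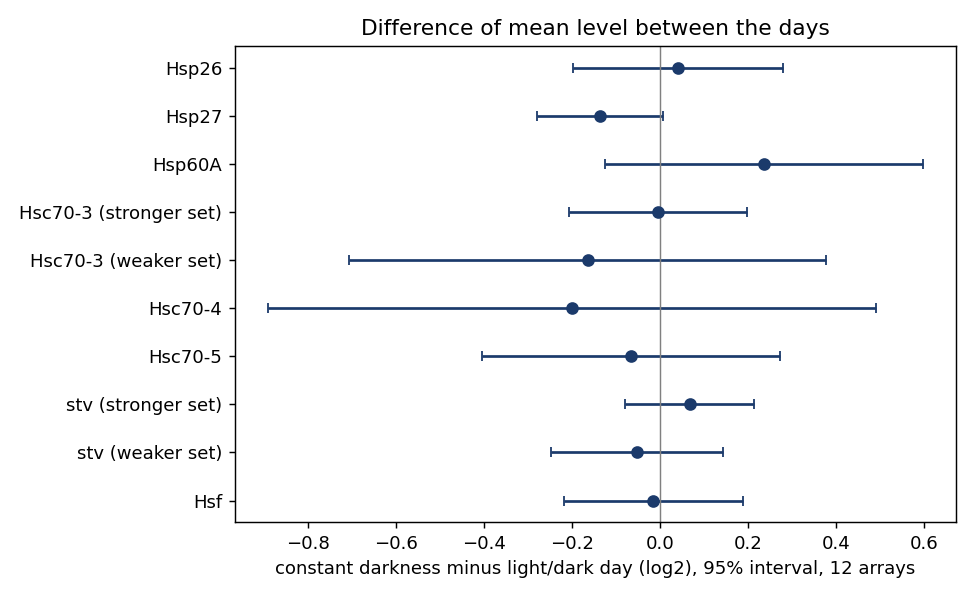
Difference of mean log2 level, constant darkness minus light/dark day, for the 10 probe sets, as fitted by limma over 12 arrays; bars are 95% intervals. All 10 intervals reach 0, and those of Hsc70-4 and the second probe set of Hsc70-3 are the widest.

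Read together, 0 of the 10 probe sets passed for the difference between the days in limma, as did 0% of all 13966. At an unadjusted p under 0.05, 0 of 10 were higher and 0 lower in constant darkness, beside 1.57% and 2.08% of all probe sets. For 0 of 10 did the arrays of the 2 days not overlap, beside 0.193% of all. The median difference was -0.03 over the 10 probe sets and -0.01 over all. For the daily rhythm 0 of 10 passed (0.00716% of all, 1 probe set), with 0 at an unadjusted p under 0.05 (1.65% of all), and the median amplitude was 0.11, against 0.07 over all. For the difference of rhythm between the days 0 of 10 passed (0.00716% of all, again 1), with 0 at an unadjusted p under 0.05 (2.62% of all).

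Several chaperone genes did vary with the technical signals of the arrays. In a limma fit with day, cosine and sine, chosen after seeing the data, Hsc70-4 rose by 0.98 ± 0.13 (SE, log2) per log2 unit of the 3' minus 5' signal (adjusted p = 0.0014). The second probe set of Hsc70-3 rose by 0.68 ± 0.15 (adjusted p = 0.0117). Hsp60A fell by 0.44 ± 0.10 (adjusted p = 0.0150) and Hsp26 fell by 0.28 ± 0.07 (adjusted p = 0.0196). So 2 of 10 probe sets rose and 2 fell, beside 7.95% and 9.4% of all probe sets. For Hsp26 and Hsp60A the 3 lowest of 12 arrays were ZT16, ZT24 and CT4, the 3 with the largest 3' minus 5' signal, and for Hsc70-4 these were the 3 highest.

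The other slopes on this signal were -0.19 ± 0.07 (SE) for the stronger set of Hsc70-3, 0.08 ± 0.06 for Hsp27, -0.12 ± 0.15 for Hsc70-5, -0.07 ± 0.09 for Hsf, and -0.005 ± 0.068 and -0.06 ± 0.09 for the sets of stv, none of which passed. The call of Hsp26 was lost without ZT16 (limma adjusted p = 0.0620), ZT20 (0.0525), CT4 (0.0924) or CT20 (0.0516). Without CT4 those of Hsp60A (0.0778) and of the second set of Hsc70-3 (0.0643) were lost too, and that of Hsp60A was lost with a repeated quantile normalization (slope -0.23, 0.1407). The call of Hsc70-4 held in all 12 fits that left out 1 array (adjusted p up to 0.0081). It was lost when ZT16, ZT24, CT4 and CT8 were left out together (slope 1.35, limma adjusted p = 0.1590), as were those of Hsp26 (-0.05), Hsp60A (0.12, with the sign turned) and the second set of Hsc70-3 (1.10); this leaves 8 arrays, over a narrower range of the signal.

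**Figure D3:**
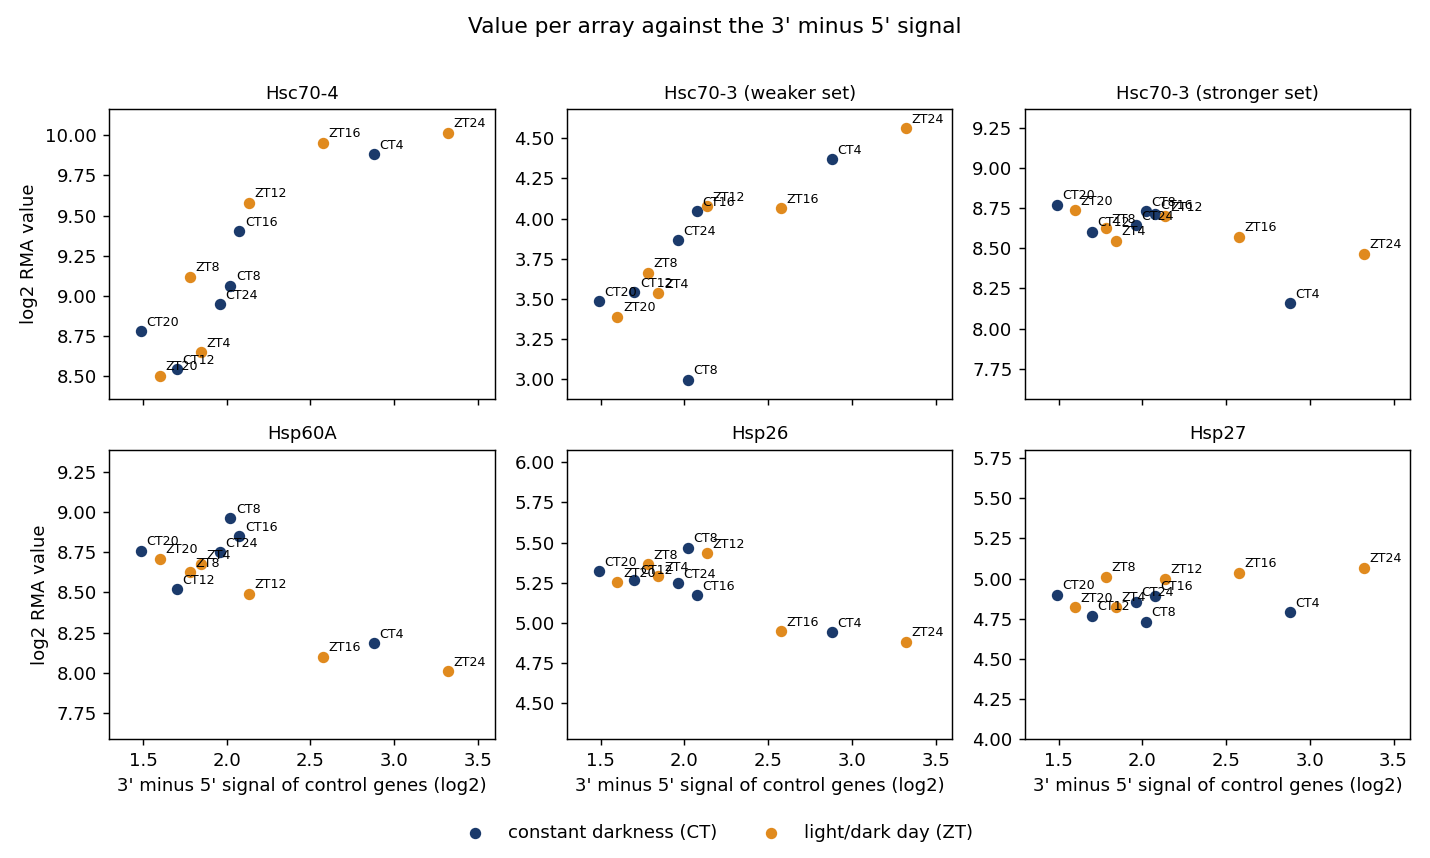
Log2 value in each array against the 3' minus 5' signal of the fly control genes (log2), for constant darkness (blue) and the light/dark day (orange); every panel spans the same log2 range. Hsc70-4 lies highest, and Hsp60A and Hsp26 lowest, in ZT24, CT4 and ZT16; the weaker probe set of Hsc70-3 lies highest in ZT24 and CT4, while Hsp27 shows no such order.

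The added control transcripts had the same 5 arrays on top, but ordered the arrays otherwise: CT8 was lowest of the 12 on their signal and in sixth place on the 3' minus 5' signal. The second probe set of Hsc70-3 rose by 0.66 ± 0.08 (SE) and Hsc70-4 by 0.73 ± 0.17 per log2 unit of that signal (limma adjusted p = 0.0023 and 0.0220), so 2 of 10 rose and 0 fell, beside 4.58% and 5.4% of all probe sets. In the 5 arrays with the strongest control signal Hsc70-4 lay at 9.40 to 10.02, against 8.51 to 9.12 in the other 7, and the second set of Hsc70-3 at 4.04 to 4.56, against 2.997 to 3.86. These 2 sets were the only ones of the 10 without overlap, both higher in the 5 arrays, as were 5.47% of all probe sets, while 4.65% were lower. The call of Hsc70-4 was lost without ZT20 (limma adjusted p = 0.1129), ZT24 (0.0583) or CT4 (0.1610), and Hsp60A (slope -0.30 ± 0.11) passed without CT16 (-0.38, 0.0464). Both indices are highest in the same 5 arrays, and the muscle list was low in 4 of these (-0.76 in ZT12, -0.97 in ZT16, -0.62 in ZT24 and -0.99 in CT4). The photoreceptor list was low in the same 4 (-0.86 to -0.24), and the fat body list stood at -0.57 to -0.09 there. The neuron list stood at 0.18 to 0.37 in all 5, against -0.85 to -0.02 in the other 7. The parts of each in the result cannot be told apart, and their part was not tested.

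With the 3' minus 5' signal or the control signal in the model, 0 of the 8 genes passed for the day difference, the rhythm or its difference between the days. The day difference of Hsc70-4 was -0.016 with the 3' minus 5' signal and 0.19 with the control signal as a covariate, against -0.20 without a covariate. That of Hsp26 was -0.012 and -0.05 in that order, against 0.04. Neither gene passed in any of these fits.

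Relatives of these genes gave the same picture for the days and the hours. Of 14 inducible relatives 3 had a probe set of their own, of 18 cytosolic chaperones and co-chaperones 14, of the 8 subunits of CCT, the cytosolic chaperonin that folds actin and tubulin, all 8, and of 10 chaperones of organelles 8. In limma 0 of the genes in these lists passed for the day difference or the rhythm, and 0 had an unadjusted p under 0.05 for either. Median day differences were 0.09, 0.08, 0.01 and 0.03 in that order of lists, beside -0.01 over all 10844 genes.

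The day differences that were largest within their lists were those of Droj2, a J-protein partner of Hsp70 (0.31 ± 0.22, SE), CCT2 (-0.30 ± 0.15), the Hsp90 co-chaperone gene p23 (0.28 ± 0.25) and Pdi, the protein disulphide isomerase (0.22 ± 0.13). They were smaller for the Hsp40 gene DnaJ-1 (0.15 ± 0.32), CCT4 (0.12 ± 0.12), the small heat shock protein relative l(2)efl (0.09 ± 0.16) and Hsp60C (0.09 ± 0.09). The amplitudes that were largest within their lists were those of Csp, the J-protein of synaptic vesicles (0.21 ± 0.12, SE), the lectin chaperone gene Cnx99A (0.19 ± 0.09), Stip1, which links Hsp70 to Hsp90 (0.18 ± 0.09), DnaJ-1 (0.16 ± 0.22), CCT2 (0.13 ± 0.10), CCT3 (0.10 ± 0.06), Hsp68, an inducible Hsp70 (0.09 ± 0.07), and Pdi (0.08 ± 0.09).

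On the 3' minus 5' signal, 6 of the 14 cytosolic genes, 4 of the 8 CCT subunits and 1 of the 3 inducible relatives fell and none of these rose. Of the 8 organelle chaperones 1 rose, Cnx99A (0.31 ± 0.08, SE; limma adjusted p = 0.0264), and 0 fell. Over all genes with a probe set of their own, 689 of 10844 rose and 1071 fell. The steepest fall among the relatives was that of DnaJ-1, at -0.98 ± 0.13 (limma adjusted p = 0.0016), whose lowest and highest arrays differed 3.01-fold; its slope had the size of that of Hsc70-4 with the opposite sign. Droj2 followed at -0.70 ± 0.09 (limma adjusted p = 0.0016), and CCT4 at -0.33 ± 0.07 (0.0096) was among the CCT subunits that fell.

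**Figure D4:**
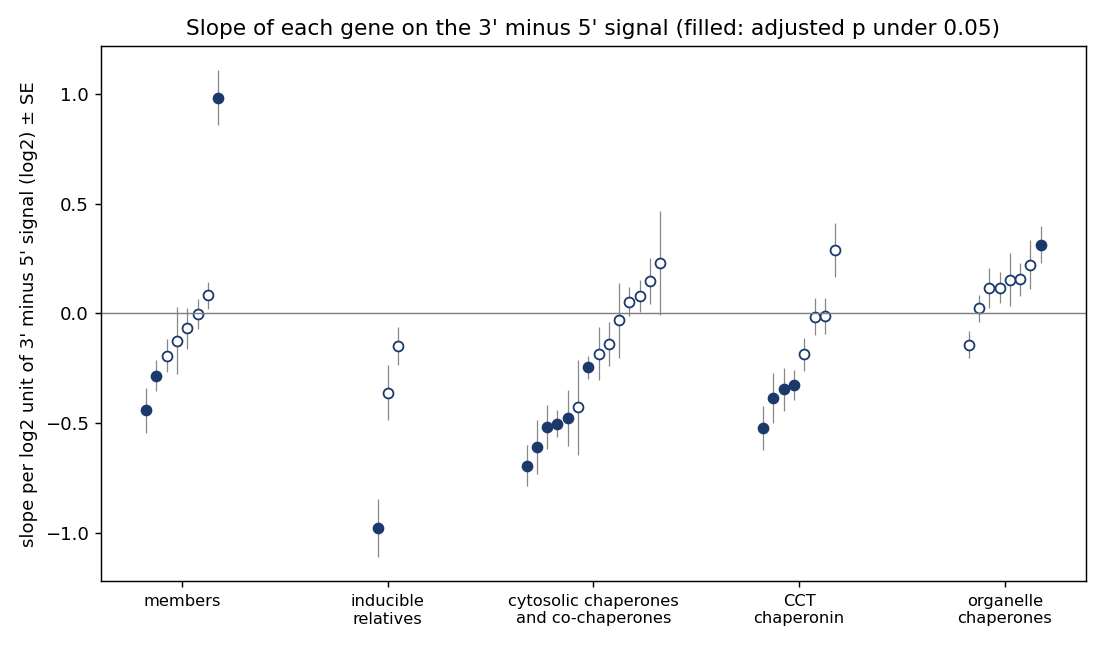
Slope of each gene's log2 value per log2 unit of the 3' minus 5' signal, with SE bars, 1 point per gene (its strongest probe set), for the members and 4 lists of relatives; filled points passed at an adjusted p of 0.05. Hsc70-4 is the only filled point above 0 among the members and lies opposite DnaJ-1 at the far left of the inducible relatives.

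Genes whose course was most like the mean of Hsp26 and Hsp27 over the 12 arrays, out of 5646 genes above the median level, were Taz (Pearson r = 0.81), CG15097 (0.81), the proteasome subunit gene Rpn1 (0.80), CG9705 (0.79) and CG6231 (0.79). They were picked as the highest of many genes over only 12 arrays, and whether unrelated genes reach such values was not tested. Hsp26 and Hsp27 had a Pearson r of -0.35 with each other. The mean itself had a Pearson r of 0.83 with Hsp26 and 0.24 with Hsp27, both of which enter it, so it followed Hsp26 more than Hsp27. It was highest in ZT12 (0.16) and ZT8 (0.13) and lowest in CT4 (-0.19), as log2 differences from the gene averages.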

How the data were processed

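Expression was measured on 12 Affymetrix arrays, 1 per time point. The deposited log2 values came from the authors' use of RMA (version not stated), according to the submitters' processing notes; the log base is inferred from the range of the values. Chip files, detection calls and scan data were not used here. Of 14010 probe sets, 44 controls were set aside and 13966 were tested; 12443 had 1 gene in the platform annotation, 327 several and 1196 none here. Names were updated through gene identifiers in a RefSeq table (Release 6 plus ISO1 MT), used for names and gene order only. For genes with several probe sets of their own, the brightest on average stood for the gene.

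limma 3.58.1 in R 4.3.3 fitted day, cosine and sine (period 24 hours) over all 12 arrays, moderated the variances and adjusted p by Benjamini-Hochberg across the probe sets tested, at a threshold of 0.05; a second model added the interaction of day with both terms. Slopes on 2 array indices (9 probe sets of added control transcripts; 3' minus 5' signal of 3 fly control genes) were added after the data were seen. The fitting code was checked on simulated data with independent noise, which lacks technical signals such as those of these arrays, and no result rests on it. Alternatives were a repeated quantile normalization, an offset of 16, a filter on dim probe sets, trended robust variances, the indices as covariates, the hour as a block, and arrays left out. Arrays left out together were ZT16, ZT24 and CT4, with the 3 largest 3' minus 5' signals, and CT8, with the lowest control signal. The members and lists were chosen with earlier results of these data known. Beside the members with every probe set, the relatives named were the 2 genes per list with the largest day difference and the 2 with the largest amplitude, and the 5 genes above the median level with the highest Pearson r to the mean centred profile of the small heat shock genes. Precision is limited by the number of arrays; the standard error of a day difference had a median of 0.09.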

Additional observations from a re-analysis of the deposited data

Results flagged for a closer look

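Each of the 10 probe sets was checked in each day for an array that stood apart from the other 5 (Dixon's ratio above 0.625). These were 20 checks, of which about 1 in 20 would be expected to stand out by chance if the arrays were replicates. The arrays of a day differ in hour and are shared between checks, so that rate is only a guide. In 1 of the 20 checks an array stood apart. The stronger probe set of Hsc70-3 measured 8.16 in CT4 (8.157), against 8.60 to 8.77 in the other 5 arrays of constant darkness. CT4 had a 3' minus 5' signal of 2.88, the second highest of the 12, and its part in this value was not tested.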

How the results depend on the processing

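No member passed for the day difference, the rhythm or its difference under any alternative run. Over all probe sets, counts moved. For the day difference (0 called) 13 were called without ZT16, ZT24, CT4 and CT8, and 0 to 1 with 1 array left out (1 without CT4). For the rhythm (1 called) the count was 0 with a repeated quantile normalization, 0 with an offset of 16, 8 without those 4 arrays and 0 to 1 with 1 array left out. For the difference of rhythm (1 called) it was 2, 3 with trended robust variances, 0 without the 4 arrays, 8 and 37 with the 3' minus 5' or the control signal as a covariate, and 0 to 4 with 1 array left out. For the slope on the control signal (1393 called) it was 704 without the 4 arrays and 108 (without CT4) to 2351 (without CT8) with 1 left out, with 0 to 2 members. For the slope on the 3' minus 5' signal (2423 called) it was 39 with 0 members without the 4 arrays, which leaves 8. The slope of Hsc70-4 from these 8 arrays was 1.35 (limma adjusted p = 0.1590). With 1 array left out the count was 986 (without CT4) to 2958, with 1 to 3 members.

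Several values changed sign, among them the slope of Hsp60A on the 3' minus 5' signal, which had passed at -0.44. The day difference turned for Hsf with quantile normalization (0.0048); without the 4 arrays for Hsp26 (-0.067), Hsc70-5 (0.22), stv (-0.034) and Hsf (0.10); for Hsp26 with either covariate (-0.012 and -0.053), for Hsc70-4 with the control signal (0.19) and in the second set of stv (-0.053). With 1 array left out it ran from -0.40 to -0.022 for Hsc70-4, -0.050 to 0.076 for Hsc70-3, -0.16 to 0.051 for Hsc70-5, -0.072 to 0.038 for Hsf and -0.023 to 0.11 for Hsp26. The slope on the control signal turned for Hsc70-3 (0.013) and stv (0.049) with quantile normalization; without the 4 arrays for Hsp26 (0.035), Hsp60A (0.072), Hsc70-3 (0.031) and stv (0.10); for stv without rhythm terms (0.011) and in the second set of Hsc70-3 (0.66). It ran from -0.10 to 0.049 for Hsf and -0.040 to 0.047 for stv with 1 array left out. The slope on the 3' minus 5' signal turned for Hsc70-3 (0.0053) and stv (0.074) with quantile normalization, for Hsp60A (0.12) and stv (0.11) without the 4 arrays, and in the second set of Hsc70-3 (0.68); it ran from -0.37 to 0.047 for Hsc70-5 and -0.018 to 0.038 for stv. The cause was not tested. Levels were 3.80 and 4.87 in the second sets of Hsc70-3 and stv. With the hour as a replicate block 0 members were called for the day difference.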
